A study of Mus musculus and Homo sapiens with 9 samples.

Results

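The cytosolic ribosomal protein genes encode the protein parts of the ribosome that translates nuclear mRNAs. They were taken as the protein-coding rows named RPL or RPS plus a number, with RPLP0, RPLP1, RPLP2 and RPSA, and without the RPS6K kinases. The rule found 85 genes among 56105 annotated human rows and 83 genes among 42462 annotated mouse rows. A filter on low counts left 82 of the 85 human genes and 81 of the 83 mouse genes to be tested.

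J.gamma1, a derivative of the Jurkat T-cell acute lymphoblastic leukaemia (T-ALL) line, was transduced with a lentivirus carrying either a control hairpin (sh-NC, 2 libraries) or a hairpin against IRF2BP2 (sh-IRF2BP2, 2 libraries), and selected with puromycin. All 4 libraries come from 1 cell line, and the labels do not say which IRF2BP2 hairpin was used. Mouse CD3+ T cells were sorted magnetically from spleen. The 2 knockout libraries are Vav-iCre+/-;Irf2bp2 fl/fl, in which the Vav promoter drives Cre across blood lineages and not in T cells alone. The 3 control libraries are labelled wild type, while the study's methods describe the controls as Vav-iCre-/-;Irf2bp2 fl/fl, which carry the floxed alleles without Cre. Whether the libraries of a group came from separate cultures or animals is not stated in the labels, so p-values measure only the spread between these libraries.

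The ribosome has a small (40S) subunit, which reads the mRNA and is built with the RPS proteins, and a large (60S) subunit, which forms the peptide bonds and is built with the RPL proteins. Each protein is needed in about equal number, and the stalk of the large subunit, made of RPLP0, RPLP1 and RPLP2, recruits translation factors. MYC raises the transcription of these genes, and their mRNAs begin with a C and a run of pyrimidines, the 5' terminal oligopyrimidine (TOP) start, through which mTOR and LARP1 set their translation. RPL5, RPL10 and RPL22 are recurrently mutated or deleted in T-ALL, and RPL5 and RPL11, when not in ribosomes, bind MDM2, the ubiquitin ligase that holds p53 down.

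A pyrimidine start near the annotated start was more frequent among the members than among all windows, though not every member had one. In 85-base windows from 60 bases before the annotated start to 25 bases from it on, read from hg38 for the human genes and from the RefSeq promoter table (GRCm38.p6) for the mouse genes, capitals mark the pyrimidines read from the nearest C that has at least 4 pyrimidines after it and lies within 10 bases of the start, and the words CCGGAAG and AAGATGGC on either strand. Pyrimidines just before that C stay in lower case, as in RPL11 and RPS7. The first 5 windows belong to human genes that fell in sh-IRF2BP2 cells, RPL15 is the human gene with the highest fold change, Rpl11 is the mouse ortholog of RPL11, and Rps27l is the mouse gene with the highest fold change. Each window holds promoter and the first bases of exon 1.

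RPL11: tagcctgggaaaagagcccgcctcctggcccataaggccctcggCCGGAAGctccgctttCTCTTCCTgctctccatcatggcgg

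RPL4: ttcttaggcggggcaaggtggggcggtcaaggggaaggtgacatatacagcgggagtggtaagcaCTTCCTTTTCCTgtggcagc

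RPS7: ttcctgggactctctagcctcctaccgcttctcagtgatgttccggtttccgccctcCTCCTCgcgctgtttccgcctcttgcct

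RPS28: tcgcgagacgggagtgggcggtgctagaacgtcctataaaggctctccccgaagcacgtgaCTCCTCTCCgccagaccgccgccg

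RPL39L: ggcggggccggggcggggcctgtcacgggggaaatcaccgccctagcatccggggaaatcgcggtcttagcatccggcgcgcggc

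RPL15: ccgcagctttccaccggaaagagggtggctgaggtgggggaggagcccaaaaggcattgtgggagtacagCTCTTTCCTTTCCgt

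Rpl11: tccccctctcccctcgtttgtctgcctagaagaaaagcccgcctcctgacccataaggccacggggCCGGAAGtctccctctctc

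Rps27l: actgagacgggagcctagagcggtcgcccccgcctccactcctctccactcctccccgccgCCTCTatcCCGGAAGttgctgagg

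In hg38 these windows are RPL11 at chr1:23691746-23691830 (plus strand), RPL4 at chr15:66504831-66504915 (minus), RPS7 at chr2:3575200-3575284 (plus), RPS28 at chr19:8321436-8321520 (plus), RPL39L at chr3:187139472-187139556 (minus) and RPL15 at chr3:23917072-23917156 (plus). In GRCm38.p6 they are Rpl11 at chr4:136053369-136053453 (minus) and Rps27l at chr9:66946026-66946110 (plus). In RPL11 the C stood exactly at the annotated start, and 8 pyrimidines were counted from it on. In RPL4 it stood 5 bases after the annotated start, with 12 pyrimidines from it on. RPL39L, a paralog of RPL39 known from testis, held no such C within 10 bases of its start, nor did mouse Rpl11. The mouse Rpl11 window ends in a run of pyrimidines that lies more than 10 bases after the annotated start. Transcription starts were not mapped here, so counts of pyrimidine starts depend on where the annotation puts the start.

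A C followed by at least 4 pyrimidines stood exactly at the annotated start in 60 of 85 human members (70.6%) and in 908 of 19550 human protein-coding genes (4.64%). Within 10 bases of the start it was found in 77 of 85 members (90.6%) and in 33.8% of all human windows. In the mouse, where 63 of 83 members had a RefSeq window, it stood at the annotated start in 12 (19.0%) against 2.26% of 16317 windows, and within 10 bases in 37 (58.7%) against 31.3%. Other words were searched on both strands from 250 bases before to 50 bases after the start. The word CCGGAAG, the core bound by ETS factors, was in 30 human members (35.3%, against 14.2% of all windows) and in 26 mouse members (41.3%, against 12.3%). The word AAGATGGC, bound by YY1, was in 11 human members (12.9%, against 4.08%) and in 6 mouse members (9.52%, against 3.30%). The GC box GGGCGG was in 58.8% of human members (61.8% of all human windows) and in 60.3% of mouse members (47.9%). The TATA word TATAAA was in 9.41% of human members (9.60%) and in 11.1% of mouse members (12.6%). The E-box CACGTG, bound by MYC, was in 7.06% of human members (8.82%) and in 7.94% of mouse members (8.0%). The words can overlap each other. Human members with the pyrimidine start exactly at the annotated position had a median log2 fold change of -0.27 (59 tested) and those without it -0.28 (23 tested), and the difference was not tested. Members with and without CCGGAAG had medians of -0.28 and -0.27.

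The libraries held 26648204 to 31120236 counts in the J.gamma1 cells and 16668577 to 37177523 in the mouse. Control replicate 3 was the shallowest mouse library, and the other 4 mouse libraries held at least 35032688 counts. The targeted gene followed the labels. IRF2BP2 had 204 and 199 CPM (counts scaled to the library's size with TMM factors) with sh-NC against 79.0 and 93.8 with sh-IRF2BP2 (log2 fold change -1.22 ± 0.13 SE, adjusted p = 0.0023, edgeR). Irf2bp2 had 112 to 127 CPM in the mouse controls and 0 counts in both knockout libraries, where a floor of 3 counts over the group puts it at least 2942-fold lower. The sorted cells carried T cell markers (11 of 11 tested, summed level 4213 to 5396 CPM in controls and 3266 to 3514 CPM in knockouts, with none passing the test).

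Levels within the family were compared as CPM per kilobase of annotated coding sequence in the control group, a scale that overstates very short genes because reads from untranslated parts count too. In sh-NC cells the median tested member stood at 1274 and the middle 80% of members lay between 561 and 1809. The highest were RPL41, whose annotated coding sequence is only 75 bases, at 10815, then RPS3A at 2536, RPS6, the substrate of the S6 kinases, at 2276, RPL13A at 2157 and RPL19 at 2141. The lowest tested were the paralogs RPL26L1 at 69.8, RPL22L1 at 77.5 and RPS27L at 89.5. In mouse control cells the median was 2341, and the highest were Rpl41 at 6374, the stalk gene Rplp1 at 5551, Rps24 at 5387, Rps27 at 4123 and Rpl13a at 3929. The lowest tested in the mouse were Rpl39l at 3.41, Rpl7l1 at 113 and Rps27l at 127. RPS9 also stood low in human cells, at 96.6 per kilobase (51.2 and 61.2 CPM with sh-NC, 42.9 and 37.9 CPM with sh-IRF2BP2, without overlap). Human rows without a GENCODE match were left out, and whether they hold reads of RPS9 was not tested.

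Several paralogs had no or almost no counts. RPL10L and RPS4Y1 had 0 counts in all 4 human libraries, RPL3L had 2 counts in each sh-IRF2BP2 library and 0 in each sh-NC library, and Rpl10l and Rpl3l had 0 counts in all 5 mouse libraries. These 5 genes were not tested. Reads from near-identical copies may have been split between rows: the annotated ribosomal protein pseudogene rows held counts equal to 4.12% to 4.27% of the members' counts in human libraries and 3.23% to 3.32% in mouse libraries. That ratio was nearly level across the groups, at 4.17% ± 0.07 in sh-NC and 4.22% ± 0.07 in sh-IRF2BP2 (SD, n = 2 each).

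The first comparison asks how the family stood after IRF2BP2 knockdown in T-ALL cells. Ribosomal protein mRNAs were lower as a group in sh-IRF2BP2 cells: the median log2 fold change of the 82 tested genes was -0.28, against 0.01 for all 15819 genes tested and -0.02 for the 2411 genes at 100 CPM or more in sh-NC cells. The fitted value was below 0 for 81 of 82 members, with RPL15 the exception, against 49.4% of all genes. In a bulk sample, fewer cells with much ribosomal protein mRNA and less of it per cell cannot be told apart. The sh-IRF2BP2 libraries lay below both sh-NC libraries for 66 members, against 28.7% of all genes. They lay above both for 0 members, against 29.6%. Of the 2411 genes at 100 CPM or more in sh-NC cells, 863 lay below and 761 above. Single genes were mostly within the error. At adjusted p under 0.05, 6 members fell, where 5.32% of all genes did. Of these 6, 5 fell by at least 0.5 on the log2 scale, where 5.01% of all genes did. Of the 2411 genes at 100 CPM or more, 240 fell at adjusted p under 0.05, 215 of them by at least 0.5. No member rose, at an adjusted p alone (5.83% of all genes) or with the 0.5 threshold (5.46%). In edgeR, 31 members were lower (13.4% of all genes) and 0 higher (14.3% of all genes) at an unadjusted p under 0.05. DESeq2 called 18 members lower, where 8.19% of all genes were, and 0 higher, where 9.17% were, at an adjusted p under 0.05.

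**Figure D1:**
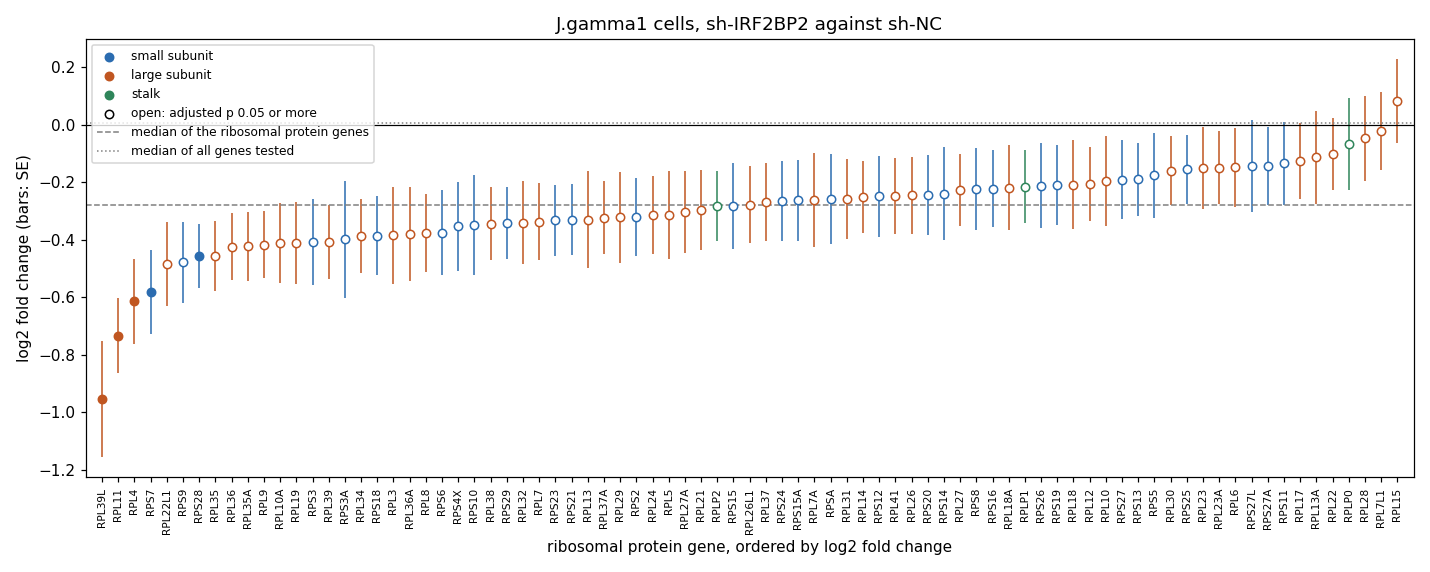
Log2 fold change in J.gamma1 cells (y axis, sh-IRF2BP2 against sh-NC, bars 1 SE) of 81 tested ribosomal protein genes, ordered from lowest to highest on the x axis and coloured by subunit. Filled points are 5 genes with adjusted p under 0.05, all below 0, and only RPL15 at the right end lies above 0.

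The shift was of like size in both subunits. The 32 small-subunit genes had a median log2 fold change of -0.26 and all were below 0, the 47 large-subunit genes had -0.30 with 46 below 0, and the 3 stalk genes had -0.21. The interquartile range of the family lay between -0.38 and -0.21, and the SE of a single gene was 0.14 at the median. Across the 82 members the fold change had a Spearman correlation of 0.15 with the level in CPM and 0.09 with transcript length, given as a description of genes that share the same 4 libraries.

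RPL11, a large-subunit protein and a partner of the 5S rRNA, had the smallest adjusted p of the family. RPL11 stood at 748 and 700 CPM with sh-NC against 415 and 456 CPM with sh-IRF2BP2. Both knockdown libraries lay well below both controls, with a log2 fold change of -0.73 ± 0.13 (SE) and adjusted p = 0.013. RPL5, which joins RPL11 on the 5S rRNA, had 945 and 1169 CPM in sh-NC and 820 and 882 CPM in sh-IRF2BP2. Its groups did not overlap either, but its log2 fold change of -0.31 ± 0.15 did not pass the test (adjusted p = 0.23). A difference between RPL11 and RPL5 was not tested.

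RPL4, a large-subunit protein that lines the peptide exit tunnel, had 1297 and 1566 CPM in sh-NC and 915 and 956 CPM in sh-IRF2BP2. RPL4 had a log2 fold change of -0.61 ± 0.15 (SE, adjusted p = 0.038). It overlaps ZWILCH on the opposite strand, which held 8298 counts over the 4 libraries beside 137012 for RPL4. RPL39L was the member with the lowest fold change and is expressed far below RPL39. It had 22.6 and 32.3 CPM in sh-NC and 13.3 and 15.1 CPM in sh-IRF2BP2, a log2 fold change of -0.95 ± 0.20 (SE, adjusted p = 0.025). Its partner RPL39, also of the exit tunnel, had 181 and 175 CPM in sh-NC and 123 and 145 CPM in sh-IRF2BP2, without overlap, and did not pass the test (-0.41 ± 0.13 SE, adjusted p = 0.083).

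Small-subunit genes also fell. RPS7, which like RPL11 can bind MDM2, had 796 and 973 CPM in sh-NC and 579 and 602 CPM in sh-IRF2BP2 (log2 fold change -0.58 ± 0.15 SE, adjusted p = 0.043). RPS28 had 73.2 and 72.8 CPM in sh-NC and 53.4 and 53 CPM in sh-IRF2BP2 (-0.46 ± 0.11 SE, adjusted p = 0.040), a fall below the 0.5 threshold. The replicates of RPS28 were nearly equal in each group. The RPS28 locus (chr19:8321158-8323340) overlaps NDUFA7 on the opposite strand, which held 4938 counts over the 4 libraries beside 7273 for RPS28, and since the library kit's strandedness is not stated reads of the overlap could go to either gene.

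**Figure D2:**
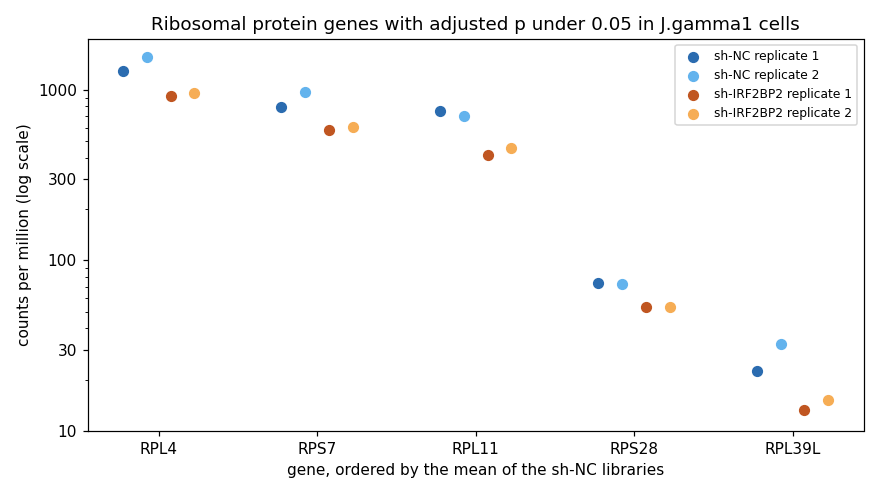
CPM (y axis, log scale) in each of the 4 J.gamma1 libraries for 5 ribosomal protein genes with adjusted p under 0.05, ordered by their mean level in sh-NC cells; each point is 1 library. For each gene both sh-IRF2BP2 points lie below both sh-NC points.

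At the other end stood RPL15, RPL7L1 and RPL28. RPL15, a core 60S protein, had 1000 and 1195 CPM in sh-NC and 1128 and 1197 CPM in sh-IRF2BP2, with a log2 fold change of 0.08 ± 0.15 (SE, adjusted p = 0.76). RPL7L1, a nucleolar paralog of RPL7, had 335 and 301 CPM in sh-NC and 338 and 288 CPM in sh-IRF2BP2 (-0.02 ± 0.14 SE), while RPL7 had 968 and 1075 CPM in sh-NC and 803 and 814 CPM in sh-IRF2BP2 (-0.34 ± 0.13 SE, adjusted p = 0.15). RPL28 had 472 and 593 CPM in sh-NC and 526 and 506 CPM in sh-IRF2BP2 (-0.05 ± 0.15 SE); it overlaps UBE2S on the opposite strand, a gene with 41766 counts over the 4 libraries beside 60874 for RPL28. The groups overlapped in RPL15, RPL7L1 and RPL28 and not in RPL7.

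The T-ALL genes of the family did not pass the test. RPL10, the site of a recurrent T-ALL mutation, had 938 and 1176 CPM in sh-NC and 882 and 965 CPM in sh-IRF2BP2, which overlapped. RPL22, deleted in part of T-ALL cases, had 396 and 417 CPM in sh-NC and 360 and 397 CPM in sh-IRF2BP2, also overlapping. Its paralog RPL22L1 had 27.7 and 29.1 CPM in sh-NC and 21.6 and 18.9 CPM in sh-IRF2BP2, without overlap (log2 fold change -0.48 ± 0.15 SE, adjusted p = 0.073). Among the stalk genes, RPLP1 had 356 and 402 CPM against 325 and 329, and RPLP2 had 335 and 365 CPM against 287 and 288, both without overlap. RPLP0 had 1327 and 1691 CPM against 1416 and 1462, which overlapped. RPSA, the 40S protein also known as the laminin receptor, had 1344 and 1703 CPM in sh-NC and 1277 and 1271 CPM in sh-IRF2BP2.

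Of the remaining paralog pairs, RPS27 had 419 and 375 CPM in sh-NC against 319 and 376 in sh-IRF2BP2. The p53-responsive RPS27L had 21.3 and 23.8 CPM against 18.8 and 22.1, and the groups overlapped in both genes. RPS27L overlaps LACTB on the opposite strand, which held 3765 counts over the 4 libraries beside 2487 for RPS27L. RPL26 had 652 and 714 CPM against 545 and 608, and RPL26L1 31.8 and 28.9 CPM against 25.1 and 25, neither overlapping. RPL3 had 1347 and 1747 CPM against 1115 and 1255, and RPS4X 1014 and 1270 CPM against 861 and 927, also without overlap. None of these 6 passed the test, with adjusted p from 0.19 for RPL3 to 0.61 for RPS27L.

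The share of all annotated counts taken by the family was 5.01% and 6.06% with sh-NC against 4.34% and 4.66% with sh-IRF2BP2. The means were 5.53% ± 0.74 and 4.5% ± 0.23 (SD, n = 2 each), a difference of -1.03 percentage points in which both knockdown libraries lay below both controls. An exact two-sided permutation test over libraries gave p = 0.33, the smallest that 2 against 2 libraries allow. The sh-NC libraries differed from each other by about as much as the group means did. Replicate 2 of sh-NC was the highest of the 4 libraries for 66 of 82 members and sh-IRF2BP2 replicate 1 the lowest for 63. Without sh-NC replicate 2 the difference was -0.50 percentage points, the median log2 fold change was -0.18 and 12 members were lower at an adjusted p under 0.05 (5.85% of all genes). Without sh-NC replicate 1 these were -1.55 points, -0.38 and 38 members (8.32% of all genes). Without sh-IRF2BP2 replicate 1 no member passed, and without sh-IRF2BP2 replicate 2 only RPL39L and RPL11 did. Counts from mitochondrially encoded genes took 4.62% in sh-NC replicate 1, 3.38% in sh-NC replicate 2, 4.63% in sh-IRF2BP2 replicate 1 and 4.35% in sh-IRF2BP2 replicate 2, so they were lowest in the library where the ribosomal protein share was highest; the part of this in the result was not tested.

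**Figure D3:**
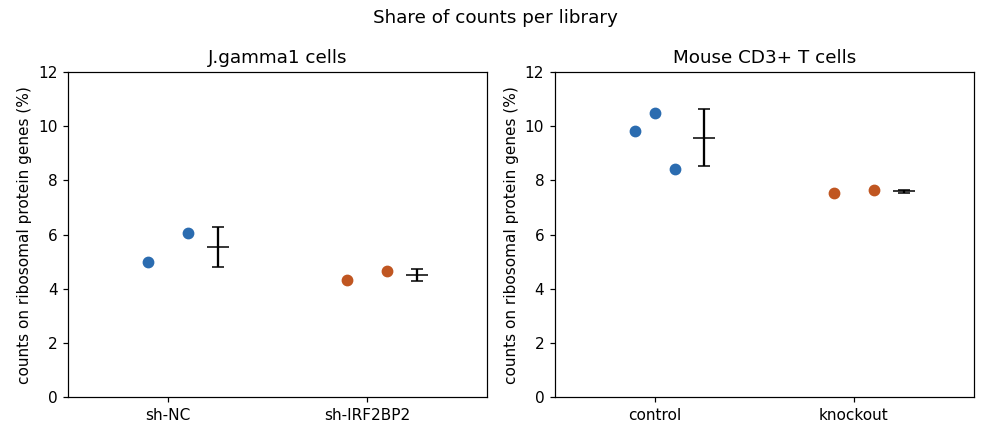
Percent of annotated counts on ribosomal protein genes (y axis, from 0) in each library (points), with the group mean and SD beside them (black), for J.gamma1 cells on the left and mouse CD3+ T cells on the right. The sh-IRF2BP2 libraries lie at 4.34% and 4.66% below the sh-NC libraries, and the knockout libraries at 7.55% and 7.64% below the 3 controls.

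Members are short mRNAs, with a median annotated transcript length of 827 bases against 2852 for all genes tested. With trends on transcript length and GC content taken out of each library, the median log2 fold change was -0.20, 77 of 82 members were below 0 and 7 were lower at an adjusted p under 0.05 (7.05% of all genes), with RPS28 no longer among them (adjusted p = 0.096, range over its alternatives 0.013 to 0.20). RPL11 passed the test in every alternative except without sh-IRF2BP2 replicate 1 (adjusted p = 0.098).

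The neighbouring lists were chosen by function. The other proteins of the cytosolic ribosome, a list of 4 with FAU, RACK1 and RPL36AL among them, had a median log2 fold change of -0.23 in sh-IRF2BP2 cells, all 4 below 0 and none passing the test. The 27 other mRNAs with a TOP start encode translation factors and also proteins of other kinds, such as VIM and COX7C. They had a median of -0.11, with 17 below 0 and none passing. The 17 regulators of ribosomal protein transcription and translation had a median of 0.10, with 5 below 0 and 12 above 0. At an adjusted p under 0.05, 2 of them fell and none rose. MYC had 281 and 214 CPM in sh-NC and 168 and 128 CPM in sh-IRF2BP2 (log2 fold change -0.74 ± 0.18 SE, adjusted p = 0.040). RPS6KB1, the S6 kinase that phosphorylates RPS6 downstream of mTOR, had 99.8 and 88.2 CPM in sh-NC and 58.1 and 59.6 CPM in sh-IRF2BP2 (-0.67 ± 0.12 SE, adjusted p = 0.013).

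Of 9 genes of the p53 response to free ribosomal proteins, 2 rose and none fell. MDM2 had 164 and 146 CPM in sh-NC and 257 and 229 CPM in sh-IRF2BP2 (log2 fold change 0.65 ± 0.13 SE, adjusted p = 0.020). ZMAT3, an RNA-binding p53 target, had 70.8 and 48.6 CPM against 115 and 108 (0.91 ± 0.18 SE, adjusted p = 0.019). The other 7 did not pass, with log2 fold changes from -0.59 for CDKN1A to 0.55 for SESN1. None of 10 nuclear import factors and assembly chaperones of ribosomal proteins passed the test (median 0.08), nor did any of the 13 mitochondrially encoded mRNAs (median 0.32). Of 11 T cell markers 2 rose (LAT 0.79, TRAC 0.51) and 1 fell (CD3D -0.79). Among markers of other blood cells, the B cell receptor gene CD79A (-2.07), the plasma cell gene MZB1 (-1.18) and the erythroid gene HEMGN (-1.77) fell and PRDM1 (1.38) rose. The other tested B cell marker, CD79B, was at -0.11 (adjusted p = 0.82, edgeR). Summed B cell markers had 50.2 to 64.9 CPM with sh-NC and 15.6 to 18 CPM with sh-IRF2BP2. Most of the sh-NC sum was CD79A (45.6 and 60.5 CPM). Plasma cell markers had 133 to 149 CPM with sh-NC and 82.6 to 84.6 with sh-IRF2BP2. Erythroid markers had 5.19 to 5.91 and 1.76 to 1.99. Myeloid, NK and platelet markers each summed to under 2 CPM in every library. The part of these measures in the result was not tested.

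The second comparison asks how the family stood in normal T cells without Irf2bp2. In the knockout libraries the median log2 fold change of the 81 tested members was -0.41, against -0.02 for all 15350 genes tested and -0.08 for the 2296 genes at 100 CPM or more in controls. It was below 0 for 80 of 81 members, with Rps27l the exception, against 52.1% of all genes. Of the 2296 genes at 100 CPM or more in controls, 1432 were below 0. The 2 knockout libraries lay below all 3 controls for 79 members, against 17.8% of all genes, and above all 3 for 0 members, against 18.2%. Of the 2296 genes at 100 CPM or more, 680 lay below and 157 above. No single member passed the test: 0 were higher at an adjusted p under 0.05 (2.68% of all genes) or with a log2 fold change of at least 1 (2.47%), and 0 were lower (0.15% of all genes, and 0.111% with the threshold of 1). At an unadjusted p under 0.05, edgeR gave 60 members lower (6.01% of all genes) and 0 higher (10.2%). DESeq2 called 7 members lower at an adjusted p under 0.05, namely Rpl12, Rpl21, Rpl23a, Rpl31, Rps7, Rps15 and Rps27, none of them by 1 on the log2 scale, where 1.63% of all genes were lower. It called 0 members higher, where 6.11% of all genes were.

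**Figure D4:**
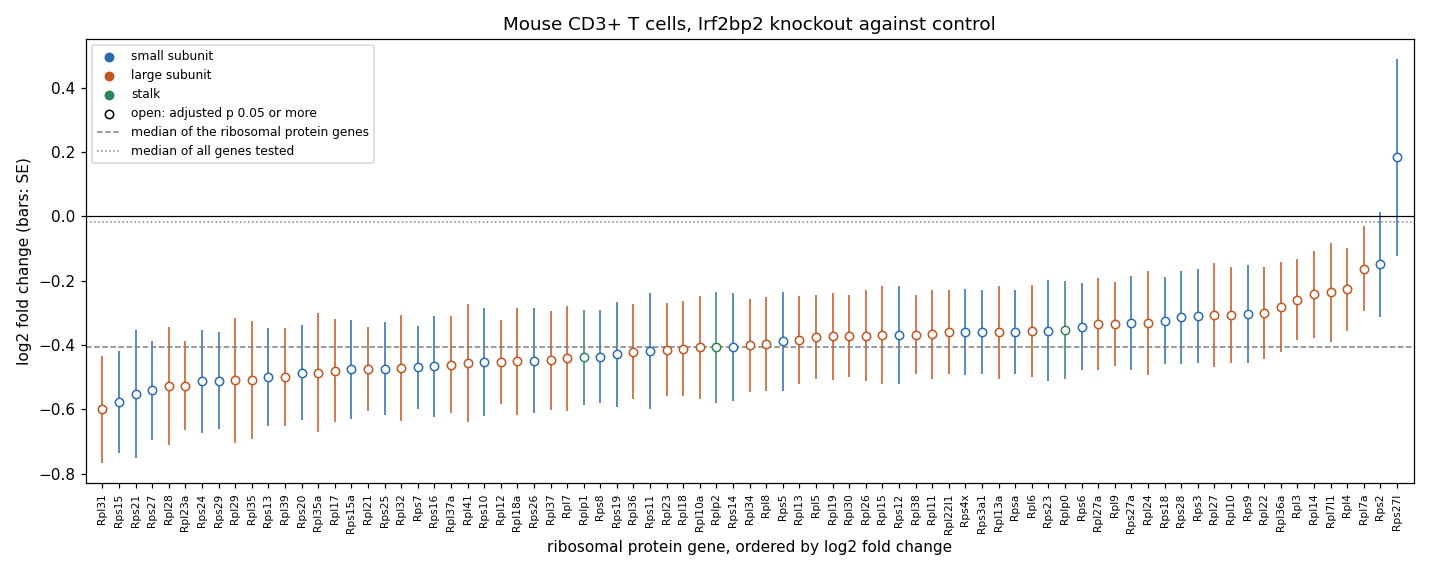
Log2 fold change in mouse CD3+ T cells (y axis, knockout against control, bars 1 SE) of 79 tested ribosomal protein genes, ordered from lowest to highest on the x axis and coloured by subunit; Rpl39l, with 2 and 0 counts in the knockouts, is not drawn. All points are open because no adjusted p was under 0.05, and all but Rps27l lie below 0.

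Subunits again had like medians, at -0.42 for 32 small-subunit genes, -0.39 for 46 large-subunit genes and -0.41 for the 3 stalk genes. The interquartile range of members lay between -0.47 and -0.35. Rpl23a, a large-subunit protein near the tunnel exit, had the smallest adjusted p of the mouse members. It had 1470, 1597 and 1342 CPM in controls and 1016 and 1026 CPM in knockouts, a gap wider than the spread of either group (log2 fold change -0.53 ± 0.14 SE, adjusted p = 0.12). Rpl31 had 797, 938 and 693 CPM in controls and 523 and 545 CPM in knockouts (-0.60 ± 0.17 SE, adjusted p = 0.14). Rps15, a 40S protein, had 1517, 1690 and 1303 CPM in controls and 984 and 1031 CPM in knockouts (-0.58 ± 0.16 SE, adjusted p = 0.13). In all 3 genes control replicate 2 was the highest library and control replicate 3 the lowest control.

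Rpl39l had 20, 10 and 12 counts in the controls and 2 and 0 counts in the knockouts, too few for its fold to be read (adjusted p = 0.14). Its partner Rpl39 had 607, 596 and 486 CPM in controls and 381 and 416 CPM in knockouts. Rps27l, the only member with a value above 0, had 31.0, 44.9 and 20.3 CPM in controls and 36.0 and 37.2 CPM in knockouts, with the knockouts inside the range of the controls (0.18 ± 0.31 SE, adjusted p = 0.83). Its partner Rps27 had 1172, 1010 and 934 CPM in controls and 677 and 752 CPM in knockouts. The other member whose groups overlapped was Rps2, with 1442, 1708 and 1278 CPM in controls and 1307 and 1356 CPM in knockouts. Rpl7a, among the 3 highest fold changes, had 1000, 965 and 877 CPM in controls and 837 and 856 CPM in knockouts.

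Rpl11 had 972, 1015 and 862 CPM in controls and 714 and 761 CPM in knockouts, close to the family median (log2 fold change -0.37 ± 0.14 SE, adjusted p = 0.26). Rpl5 had 2569, 2425 and 2344 CPM in controls and 1904 and 1867 CPM in knockouts. Rpl10 had 1153, 1372 and 1101 CPM in controls and 974 and 983 CPM in knockouts. Rpl22 had 491, 497 and 407 CPM in controls and 380 and 376 CPM in knockouts, and Rpl22l1 174, 194 and 173 CPM against 132 and 149. The knockouts were below every control in these 5 genes.

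For the stalk, Rplp0 had 3285, 3796 and 3042 CPM in controls and 2671 and 2615 CPM in knockouts. Rplp1 had 1931, 2080 and 1685 CPM against 1374 and 1431, and Rplp2 710, 821 and 586 CPM against 527 and 539. Rpsa had 3098, 3345 and 3127 CPM in controls and 2513 and 2464 CPM in knockouts. Rpl3, Rpl26, Rpl7, Rpl7l1 and Rps4x likewise had both knockouts below all controls, with log2 fold changes of -0.26, -0.37, -0.44, -0.24 and -0.36.

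The family took 9.83%, 10.5% and 8.44% of annotated counts in the mouse controls and 7.55% and 7.64% in the knockouts. The means were 9.58% ± 1.04 (SD, n = 3) and 7.59% ± 0.06 (SD, n = 2), a difference of -1.99 percentage points. An exact two-sided permutation test over the libraries gave p = 0.20, where 0.10 is the smallest that 3 against 2 libraries allow. The lowest control was replicate 3, the library of least depth. Without control replicate 3 the difference was -2.56 points and the median log2 fold change -0.49, and without control replicate 2 they were -1.54 points and -0.31.

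Other measures moved with the mouse groups. Of 8 tested erythroid markers, 7 rose, and their summed level was 43.7 to 136 CPM in controls and 873 to 1110 CPM in knockouts. Slc4a1, the anion exchanger of the red cell membrane, and Hemgn had log2 fold changes of 3.68 and 3.67. The 11 T cell markers had a median log2 fold change of -0.43 and the 12 mitochondrially encoded mRNAs -0.46, near that of the ribosomal protein genes, and none of either list passed the test. Summed B cell markers spanned 25.5 to 216 CPM in controls and 24.2 to 77.0 CPM in knockouts, myeloid markers 38.5 to 397 and 86.9 to 142, NK markers 77.1 to 139 and 48.1 to 68.9, plasma cell markers 411 to 1149 and 1134 to 1496, and platelet markers 6.94 to 15 and 10.6 to 14. Of these 5 lists 1 gene passed the test, the plasma cell gene Prdm1 (1.42). The part of these measures in the ribosomal protein result was not tested. Mouse members had a median transcript length of 681 bases against 2387 for all genes tested, and across members the fold change had a Spearman correlation of 0.27 with transcript length and 0.46 with coding length. With length and GC trends taken out, the median was -0.26 and 79 of 81 members were below 0.

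In the mouse lists, the 4 other proteins of the cytosolic ribosome had a median log2 fold change of -0.39, all below 0 and none passing. The 26 other TOP mRNAs had a median of -0.13, with 19 below 0. One of them passed the test: Pabpc4, a poly(A)-binding protein gene, had 120, 112 and 111 CPM in controls and 214 and 224 CPM in knockouts (0.93 ± 0.12 SE, adjusted p = 0.014). None of the 17 regulators passed, with Myc at -0.10 (adjusted p = 0.85) and Rps6kb1 at -0.02 (adjusted p = 0.97), nor any of the 9 p53 response genes, with Mdm2 at -0.12 (adjusted p = 0.71) and Zmat3 at -0.08 (adjusted p = 0.90). The 10 import factors and chaperones had a median of -0.06 with none passing. Whether these genes responded differently in the human and the mouse cells was not tested.

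The J.gamma1 and mouse comparisons share no libraries. Of 81 ortholog pairs tested in both, 79 had values below 0 in both and 64 had treated libraries below all controls in both. Of 9900 genes tested in both and paired by symbol these shares were 28.1% and 7.06%. The fold change was lower in the mouse for 60 of the 81. The order of the members showed little relation between the cells: leaving out RPL39L, Pearson's r was 0.02 and Spearman's rho -0.06 over 80 pairs, given as a description across genes, which are not independent replicates. RPL11 had -0.73 in J.gamma1 cells and -0.37 in mouse cells, RPL4 -0.61 and -0.23, RPS7 -0.58 and -0.47, RPS28 -0.46 and -0.31, RPL15 0.08 and -0.37, and RPL23A -0.15 and -0.53.

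**Figure D5:**
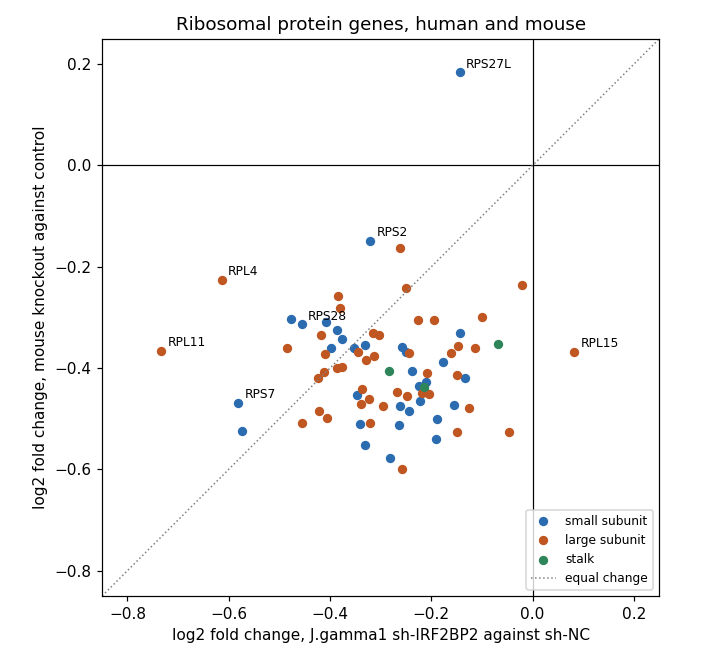
Log2 fold change of 80 ribosomal protein genes in J.gamma1 cells (x axis, sh-IRF2BP2 against sh-NC) and of their mouse orthologs (y axis, knockout against control); each point is a gene, coloured by subunit, and the dotted line marks equal change. All but RPL15 and RPS27L lie in the lower left part, with little relation between the axes (Spearman's rho -0.06); RPL39L is not drawn.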

How the data were processed

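RNA was sequenced from J.gamma1 cells (2 sh-NC and 2 sh-IRF2BP2 libraries) and mouse CD3+ T cells (3 control and 2 knockout libraries), grouped by the labels. Per the submitters' processing notes and the study's methods, the authors aligned total RNA reads (150-base pairs) with HISAT2 2.2.0 to hg38 or mm10, and assembled and counted them with StringTie. The deposited values are whole-number counts per gene. Genes were named from GENCODE 44 and M21; 8147 human and 970 mouse rows without a match were left out, and annotated rows held 97.89% to 98.09% and 99.81% to 99.83% of counts. Counts were filtered (filterByExpr), scaled (TMM) and tested with edgeR 4.0.16 (quasi-likelihood, condition only, in R 4.3.3), with Benjamini-Hochberg adjustment over all genes tested. A gene was called at adjusted p under 0.05 with a change of 0.5 or more (J.gamma1) or 1 or more (mouse) on the log2 scale. DESeq2 1.42.0, other scalings, filters, row sets, a replicate block, length and GC trends, and each library left out were alternatives. The scripts were tested on simulated data. The members and lists were chosen with earlier results of these data known.

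The named genes were those with an adjusted p under 0.05, the 3 highest and 3 lowest fold changes, the 5 highest and 3 lowest levels per kilobase, fixed paralog pairs, the stalk, RPSA, RPL5, RPL10, RPL11 and RPL22, and at most 4 called genes of each other list. Rpl23a, the genes DESeq2 called in the mouse, RPS9, RPL23A, CDKN1A and SESN1 were named after their values were seen. Coding length replaced transcript length for levels per kilobase, and the printed windows and the rule of 10 bases around the start were set, after values were seen. No 2 libraries of a group agreed within sampling noise, and no per-sample column was left unused. Raw reads were not analysed here, and strandedness is not given in the sources used here. The floor of 3 counts covers counting error only. The SE of a fold change comes from the edgeR fit, which includes its estimate of the spread between libraries. Some genes, 1 called member among them, are counted in the summaries but not reported here by name or drawn by name.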

Additional observations from a re-analysis of the deposited data

How the results depend on the processing

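Both medians stayed below 0 in every alternative run, and both shares of counts stayed lower in the treated group. Members called lower in J.gamma1 cells (5) became 2 with every gene of at least 1 count tested, 3 with length and GC trends removed, 3 with the replicate block and the trends removed, and 0 to 17 with 1 library left out, where a lone library is assumed to vary like the others. The J.gamma1 median was -0.38 to -0.18 and the mouse median -0.49 to -0.31 with 1 library left out, and the share differences were -1.55 to -0.50 and -2.56 to -1.54 percentage points. The mouse median was -0.26 with the trends removed and -0.27 with the replicate block as well. With the log2 thresholds of 0.5 (J.gamma1) and 1 (mouse), no member was called higher in either cell type, or lower in the mouse, under any alternative. Few mouse members could reach the threshold of 1: apart from Rpl39l, the lowest fold change in the main fit was -0.60 (Rpl31). Without a fold threshold, DESeq2 called 7 mouse members lower. By adjusted p alone, 6 J.gamma1 members became 18 with DESeq2, 10 with upper-quartile scaling (6.53% of all genes) and 23 with the replicate block (10.5%). The cause of these changes was not tested.

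The length used for the trends was chosen after the trend-removed values had been seen. Of 4 definitions run, the length of the principal transcript was kept. With the median over coding transcripts, the J.gamma1 median was -0.18 with 3 members called and the mouse median -0.24. With the shortest coding transcript these were -0.22, 5 and -0.29, and with the transcript of the longest coding sequence -0.20, 3 and -0.26.

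The replicate numbers were not shown to pair the samples. Over all genes tested, deviations of same-numbered libraries correlated at 0.23 in J.gamma1 cells. In the mouse they correlated at 0.15 for number 1 and -0.16 for number 2. Over the ribosomal protein genes alone the values were 0.05 in J.gamma1 cells, and 0.07 for number 1 and 0.61 for number 2 in the mouse. With the replicate block 5 J.gamma1 members were called lower, with a median of -0.27, and 0 mouse members, with a median of -0.48.

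No named gene that passed the test changed direction, but genes near 0 did. With the trends removed RPL13A was at 0.044, RPLP0 at 0.090 and Rps2 at 0.026, and with the replicate block as well RPL13A was at 0.046, RPLP0 at 0.094 and Rpl7a at 0.0092. With the median over coding transcripts RPL13A was at 0.020, RPL28 at 0.078, RPLP0 at 0.077 and Rps2 at 0.034. With the longest coding sequence they were at 0.034, 0.054, 0.079 and 0.025, and with the shortest transcript RPL28 was at 0.015. Rps27l was at -0.029 with the replicate block. With 1 library left out RPL13A ranged from -0.277 to 0.066, RPL15 from -0.044 to 0.215, RPL28 from -0.206 to 0.126, RPLP0 from -0.236 to 0.116, RPL7L1 from -0.165 to 0.087 and Rps27l from -0.061 to 0.517. Of all values of named genes under the alternatives, 1000 kept direction and side of the threshold, 26 newly passed, 18 no longer passed and 23 changed direction. The design leaves 2 residual degrees of freedom in J.gamma1 cells and 3 in the mouse, which limits what single genes can show.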
